A study of Mus musculus with 14 samples.

Results

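Mouse embryonic stem cells (ESCs) of a double-reporter line were compared between 2i medium and serum medium, within the gate that was positive for GFP and negative for RFP. The comparison rests on 4 of the 14 arrays of the study, 2 from 2i cells and 2 from serum cells, chosen by their sample titles. The 2i cells were in serum-free N2B27 medium with LIF and 2 inhibitors, 3 µM CHIR99021 and 1 µM PD0325901. The serum cells were in conventional ESC medium with LIF. Both groups were of strain C57/B6 and came from blastocysts that carried both transgenes, O4-DE-GFP and O4-PE-RFP, and both were sorted by FACS before RNA extraction. The RFP transgene drives tdTomato from the proximal enhancer and promoter of Oct4 (the gene Pou5f1) in a genomic fragment without the distal enhancer. The gate therefore selects cells by reporter activity in both media, and cells outside it were not part of either group. The labels do not say how many lines or cultures were used. The other 10 arrays, 2 for each group, were RFP-positive serum ESCs, serum ESCs with the distal-enhancer GFP reporter alone, epiblast-like cells (EpiLCs), epiblast stem cells (EpiSCs) and mouse embryonic fibroblasts (MEFs).

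CHIR99021 inhibits the kinase GSK3, so that beta-catenin accumulates as it does after Wnt signalling, and PD0325901 inhibits MEK, the kinase that activates ERK below FGF receptors. LIF acts through its receptor and STAT3 and was present in both media. Serum contains growth factors, lipoproteins and ligands of the BMP and TGF-beta families, whereas N2B27 is a defined medium. The 2 media therefore differ in the inhibitors, in serum and in basal medium at once, and the parts these played cannot be told apart. In 2i, mouse ESCs are known for a uniform naive state with low ERK activity.

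Each array gave a log2 normalized signal per gene, called its level here, for 10481 genes that were detected on both arrays of at least 1 group. On the 2i arrays 12825 and 12913 of 25697 probes were detected (detection p-value under 0.05), against 13815 and 13472 on the serum arrays. Levels of the 2i arrays correlated with each other at 0.997 across genes, and those of the serum arrays at 0.998. Pou5f1 itself was at 13.53 and 13.56 in 2i, against 13.57 and 13.74 in serum (−0.10 log2, SE 0.12, adjusted p = 0.55), and the sign turned with median scaling (0.09 log2). The ESC identity of both groups was checked with 5 markers, Pou5f1, Nanog, Sox2 and Zfp42 among them, whose levels summed to 64.9 and 64.8 in 2i and to 63.6 and 63.7 in serum, against 28.8 and 29.5 in MEFs. Of 10 fibroblast or feeder markers, 8 and 8 were detected on the 2i arrays and 9 and 8 on the serum arrays, and their levels summed to 76.9 and 76.3 in 2i, 77.8 and 77.2 in serum and 119 and 120 in MEFs, with 2 markers called higher in 2i and 2 lower. Extraembryonic endoderm markers (4 tested, 2 lower in 2i) summed to 23.6 and 23.2 in 2i and to more on both serum arrays, and trophoblast markers (2 tested, 1 lower) to 9.68 and 9.96, against 12.2 and 12.3. Hematopoietic or endothelial markers (3 tested, 2 higher) summed to 27.7 and 27.4 in 2i, against 26.6 and 26.9 in serum. In these bulk samples, fewer cells of a type and less RNA per cell cannot be told apart.

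In the limma fit, 4160 of 10481 genes (39.7%) were called different between 2i and serum at a Benjamini-Hochberg adjusted p under 0.05. There were 2060 genes higher in 2i (19.7%) and 2100 lower (20.0%), and 394 (3.76%) and 669 (6.38%) of these by at least 2-fold. The median change over all genes was 0.01 log2, and 70.7% of genes lay within 0.5 log2 of no change. Detection, which comes from the same signals as the fit and is no separate evidence, was counted as well. Of the 10481 genes, 98 were detected on both 2i arrays and on neither serum array, and 464 on both serum arrays and on neither 2i array. A further 8301 were detected on all 4 arrays. The lowest detected level was 5.87 and 5.84 on the 2i arrays, against 5.61 and 5.69 on the serum arrays, and its part in these counts was not tested. The spread of each gene was estimated over all 14 arrays, so a gene whose EpiSC arrays lie apart has a wide error even where the 4 compared arrays lie close. Without either EpiSC array the counts were 2592 higher and 2667 lower. Leaving out 1 of the 4 compared arrays left 1423 to 1537 genes higher and 1493 to 1562 lower. Every adjusted p below is from this fit, each standard error (SE) is that of the log2 change with n = 2 arrays a group, and a p-value measures only the spread between these arrays, since nothing in the labels says that replicates were separate cultures.

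**Figure D1:**
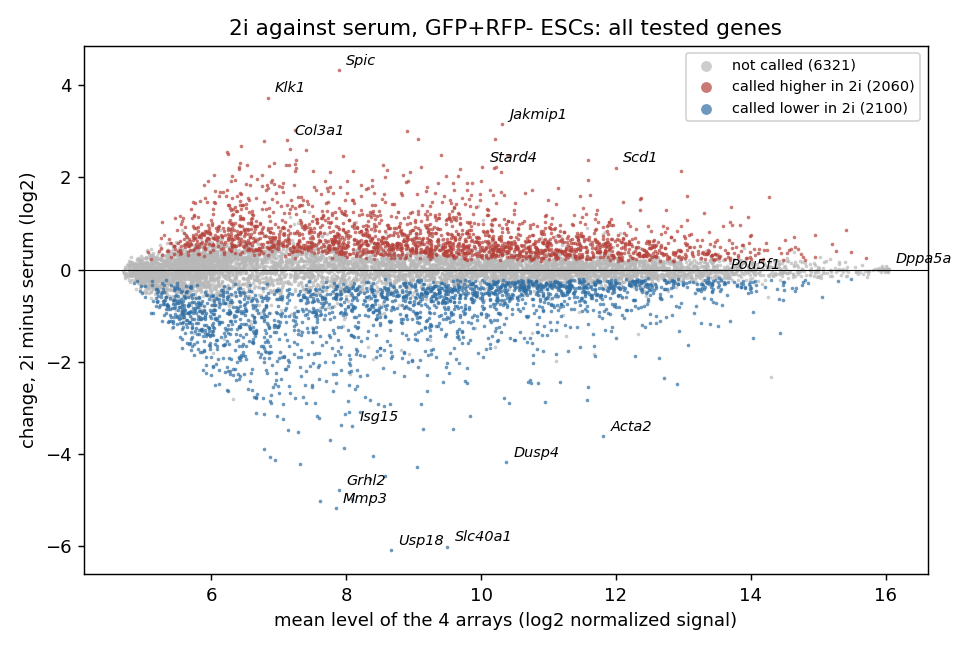
Change of each of the 10481 tested genes, 2i minus serum in log2, against the mean level of the 4 arrays, with the 2060 genes called higher in 2i in red, the 2100 called lower in blue and the others in grey. The falls reach further from 0 than the rises (−6.09 for Usp18 and 4.33 for Spic), while Pou5f1 lies near 0.

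The largest rise in 2i was that of Spic, which encodes an ETS transcription factor known from red pulp macrophages. Its level was 10.06 and 10.05 in 2i, against 5.73 and 5.72 in serum, a 20.1-fold difference (4.33 log2, SE 0.10, adjusted p = 6.8e-09). Jakmip1, which encodes a protein that binds Janus kinases and microtubules, was at 11.85 and 11.93 in 2i and at 8.78 and 8.69 in serum (3.15 log2, SE 0.16). For both genes the 4 arrays fell into separate pairs, with under 0.1 log2 between the arrays of a medium. Where neither array of a medium detected a gene, its fold is given as a bound ("at least"), computed against the higher of its own signal and the lowest detected signal on each array of that medium. Klk1, the gene of tissue kallikrein, was at 8.71 and 8.69 in 2i and undetected on both serum arrays (at least 8.28-fold higher, adjusted p = 2.9e-07), and its chromosomal neighbour Klk1b5 was likewise undetected in serum (at least 3.63-fold higher). Mitf, a basic helix-loop-helix factor known from melanocytes, had levels of 7.78 and 7.76 in 2i and was not detected in serum (at least 4.37-fold higher).

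Several of the other large rises encode signalling or matrix proteins. The Wnt antagonist gene Sfrp1 was at 11.63 and 11.63 in 2i, against 8.79 and 8.77 in serum (2.84 log2, SE 0.10). Slit2, an axon guidance ligand gene, was at 10.59 and 10.70 in 2i, against 8.09 and 8.23 in serum (2.48 log2, SE 0.22). Atp2a3, which encodes a calcium pump of the endoplasmic reticulum, rose by 2.83 log2 (SE 0.14), and Rnf225, a RING finger gene, by 3.00 log2 (SE 0.14). Col3a1, the gene of fibrillar collagen III and one of the fibroblast markers, was at 8.41 and 8.65 in 2i and at 5.68 and 5.77 in serum (2.81 log2, SE 0.16). Aim2, a cytosolic DNA sensor gene, rose by 2.46 log2 (SE 0.51, adjusted p = 0.0037). The organizer homeobox gene Gsc was undetected in serum and at least 4.04-fold higher in 2i, with levels of 7.60 and 7.72 there. Dio3, whose enzyme inactivates thyroid hormone, rose by 2.28 log2 (SE 0.17), and Myl7, an atrial myosin light chain gene, was at least 3.62-fold higher.

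The falls were larger than the rises: the 25th largest fall was −3.24 log2 and the 25th largest rise 2.26 log2. Slc40a1, the gene of ferroportin, the only known cellular iron exporter, was at 6.42 and 6.58 in 2i, against 12.53 and 12.48 in serum, 64.4-fold lower (−6.01 log2, SE 0.09, adjusted p = 5.8e-10). Usp18, whose protease removes ISG15 from proteins, was undetected in 2i and at 11.74 and 11.68 in serum (at least 57.8-fold lower). Grhl2, a transcription factor gene of epithelia, was also undetected in 2i and at 10.24 and 10.35 in serum (at least 21.7-fold lower). Between 2i and serum, these 3 genes differed by far more than the arrays of a medium differed among themselves. Spink1, a trypsin inhibitor gene, was at 6.07 and 5.13 in 2i, against 10.59 and 10.54 in serum (−4.97 log2, SE 0.24), and was detected on 1 of the 2i arrays. Krt23, a keratin gene, and Car4, a carbonic anhydrase gene, were undetected in 2i and at least 8.96-fold and 7.3-fold lower. Dab2, an endocytic adaptor gene, was at 6.11 and 6.39 in 2i, against 9.63 and 9.59 in serum (−3.36 log2, SE 0.20).

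For all 50 of these genes, the 25 largest rises and the 25 largest falls, the 2i and serum arrays did not overlap, which is how they were chosen and no separate evidence. The smallest gap between the groups was 1.92 log2, and the largest difference between arrays of 1 medium was 0.95 log2, that of Spink1 in 2i. The lists of neighbours on a chromosome held Klk1 and Klk1b5 on chromosome 7 and the chemokine genes Ccl2 and Ccl7 on chromosome 11. Over whole chromosomes, the median change ran from −0.05 log2 on X to 0.11 log2 on chromosome 11.

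**Figure D2:**
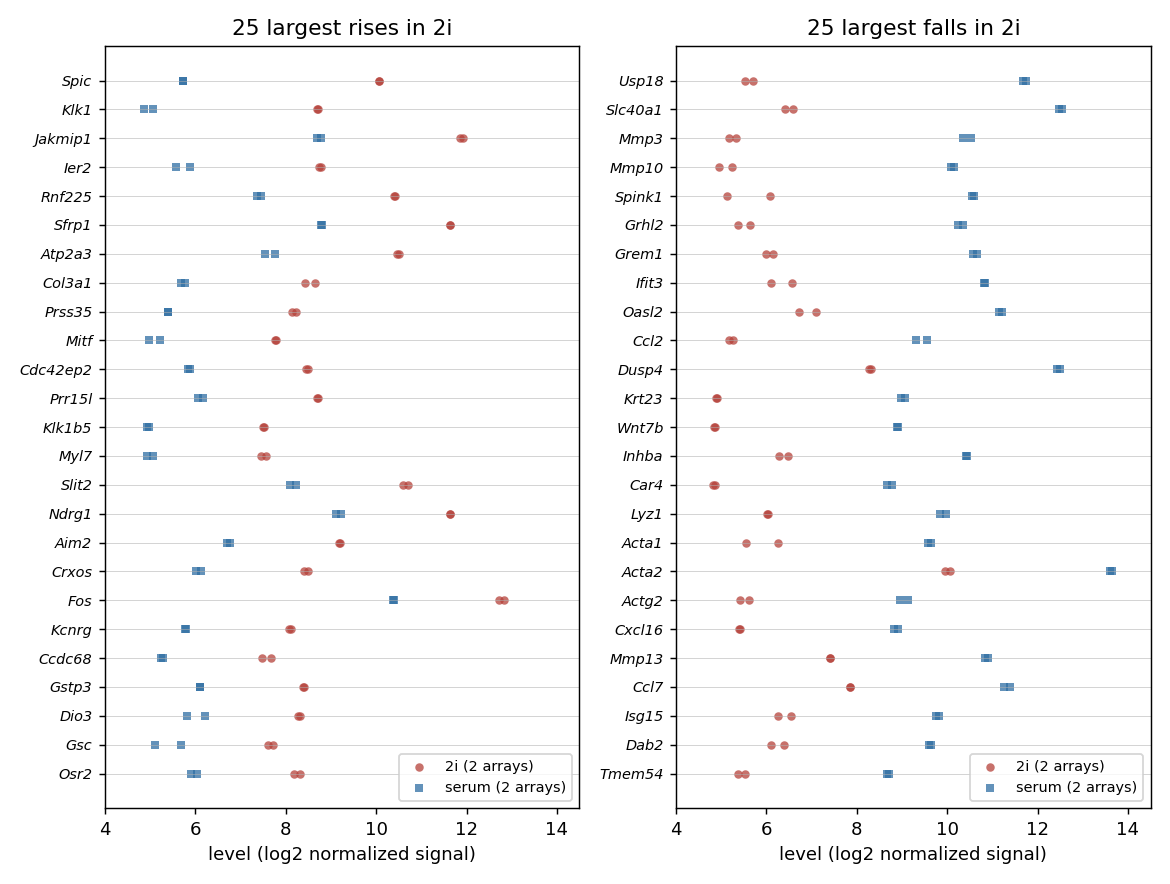
Level (log2 normalized signal) of the 25 genes with the largest rises and the 25 with the largest falls on each of the 2 2i arrays (red) and the 2 serum arrays (blue). The groups do not overlap for any of the 50 genes, with Spink1 showing the widest gap between the 2i arrays (0.95 log2).

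Interferon-stimulated genes were mostly lower in 2i. They are known targets of interferon signalling, and their products block viral replication. Of 34 tested members, 26 were lower in 2i and 1 was higher (79.4% called, against 39.7% of all genes), with a median of −1.27 log2. Leaving out 1 compared array left 21 or 22 lower, and 4 were higher without either EpiSC array. Among the effectors, Isg15, the ubiquitin-like modifier that Usp18 removes, was at 6.53 and 6.25 in 2i, against 9.76 and 9.83 in serum (−3.40 log2, SE 0.21, adjusted p = 2.2e-06). Oasl2, an oligoadenylate synthetase-like gene, was at 6.73 and 7.09 in 2i, against 11.21 and 11.16 in serum (−4.28 log2, SE 0.13). Ifit3, which encodes an RNA-binding effector, was at 6.56 and 6.10 in 2i, against 10.83 and 10.80 in serum (−4.49 log2, SE 0.92, adjusted p = 0.0036). The guanylate-binding protein genes Gbp2 and Gbp3 were both lower, Gbp2 by at least 6.52-fold (undetected in 2i) and Gbp3 by 3.17 log2 (SE 0.16). Rsad2, the gene of viperin, fell by 1.80 log2 (SE 0.25).

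Genes that carry the interferon signal itself were among those called. Irf7, a master regulator of type I interferon responses, was undetected in 2i and at 6.91 and 6.83 in serum (at least 2.03-fold lower). Irf9, an interferon regulatory factor gene, was at 9.62 and 9.41 in 2i, against 10.20 and 10.22 in serum (−0.69 log2, SE 0.09, adjusted p = 0.00023). The RNA sensor genes Ddx58 and Eif2ak2 fell by 1.16 log2 (SE 0.14) and 1.01 log2 (SE 0.14). Ifitm2, a membrane restriction factor gene, was the 1 member that rose (0.55 log2, SE 0.10), at 13.64 and 13.70 in 2i and 13.05 and 13.18 in serum. Irf1, a further interferon-induced regulator, was not called (0.79 log2, SE 0.29, adjusted p = 0.054), although its levels of 12.50 and 12.43 in 2i lay above 11.69 and 11.65 in serum.

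The promoters of these genes are shown because many interferon-stimulated genes are known to carry the interferon-stimulated response element, to which interferon regulatory factors bind. The letters GAAA, 2 bases of any kind and GAAA, on either strand and with overlaps counted, were searched in the 250 bases before each gene's start, in promoter windows from RefSeq (build GRCm38.p6). Of the 25 members with a window, 10 (40%) held a match, against 2.64% of the 8477 tested genes with a window. The matches were in 9 of 19 members called lower (47.4%), in 0 of 5 not called and in Ifitm2. Of these, 5 members are printed with the matches in capitals, written 5′ to 3′ on the gene's strand. A match is a description of these letters and not evidence of binding.
Isg15, chr4:156200850-156200921 (minus strand): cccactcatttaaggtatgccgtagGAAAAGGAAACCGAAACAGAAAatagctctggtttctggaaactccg
Ifit3, chr19:34583348-34583441 (plus strand): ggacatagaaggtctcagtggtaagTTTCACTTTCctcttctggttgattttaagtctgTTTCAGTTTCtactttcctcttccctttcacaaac
Gbp2, chr3:142620579-142620638 (plus strand): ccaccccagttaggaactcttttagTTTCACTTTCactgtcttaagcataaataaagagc
Gbp3, chr3:142559974-142560039 (plus strand): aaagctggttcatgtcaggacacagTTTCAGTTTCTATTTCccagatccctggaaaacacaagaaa
Rsad2, chr12:26456538-26456597 (minus strand): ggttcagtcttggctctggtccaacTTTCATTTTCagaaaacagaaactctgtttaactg
In Isg15 there were 3 overlapping matches, between 78 and 57 bases before the start, and in Ifit3 there were 2, apart from each other, between 156 and 113 bases before it. The match of Gbp2 lay 59 to 50 bases before the start. All 5 of these genes were called lower, and for each of them the 2i levels lay below the serum levels on every array. They were chosen from the members called lower, so this is no separate evidence.

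Antigen presentation genes, several of which respond to interferon, moved in both directions. Of 18 tested members of the MHC class I list, 4 were higher and 7 lower (61.1% called, against 39.7% of all genes), with a median of 0.06 log2. The number higher was 2 without 2i array 2, and the number lower was 4 without serum array 2 or 2i array 1. Psmb9, an immunoproteasome subunit gene, was at 5.78 and 5.88 in 2i, against 8.14 and 8.03 in serum (−2.25 log2, SE 0.35). The peptide transporter gene Tap2 fell by 1.28 log2 (SE 0.17) and the class Ib gene H2-M3 by 1.39 log2 (SE 0.13). Psme2, a proteasome activator gene, instead rose by 1.04 log2 (SE 0.10), and the class Ib gene H2-T10 by 1.01 log2 (SE 0.17).

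Genes of secreted inflammatory proteins and matrix proteases were lower in 2i for most of those called. Of 21 tested members, 13 were lower and 2 higher (71.4% called, against 39.7% of all genes), with a median of −1.66 log2. Without any 1 of the 4 compared arrays 8 were lower. The number higher was 1 without serum array 1, serum array 2 or 2i array 2 and 0 without 2i array 1. The stromelysin genes Mmp3 and Mmp10 were undetected on both 2i arrays, while Mmp3 was at 10.34 and 10.52 and Mmp10 at 10.15 and 10.09 in serum. Their bounds were at least 23.9-fold and 19.3-fold lower, with wide errors on the fitted change (SE 0.97 and 0.90). The collagenase gene Mmp13 was at 7.41 and 7.41 in 2i, against 10.84 and 10.91 in serum (−3.47 log2, SE 0.53). The monocyte chemokine gene Ccl2 was undetected in 2i and at least 11.9-fold lower. Cxcl16, a membrane-bound chemokine gene, was at least 8.09-fold lower, with 8.91 and 8.83 in serum. Mmp9, a gelatinase gene, fell by 1.66 log2 (SE 0.12), and Plaur, the urokinase receptor gene, by 1.53 log2 (SE 0.26). The protease inhibitor gene Timp2 was at 9.35 and 9.37 in 2i and 11.05 and 11.02 in serum but was not called (−1.67 log2, SE 0.94, adjusted p = 0.19). Many of these genes are also expressed by fibroblasts. The summed fibroblast marker level was 76.9 and 76.3 in 2i and 77.8 and 77.2 in serum, as given above. In that sum of log2 levels, 2 markers called higher and 2 called lower offset each other, so near-equal sums do not show equal fibroblast content. The part of fibroblasts in these falls was not tested.

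Most iron genes were called, in both directions. Cells take up iron as transferrin through the transferrin receptor, pass it into the cytosol through the transporter Slc11a2, store it in ferritin and export it through ferroportin. The genes of the receptor and of Slc11a2 were higher in 2i. Tfrc, the transferrin receptor gene, was at 14.36 and 14.41 in 2i, against 13.71 and 13.56 in serum (0.75 log2, SE 0.10, adjusted p = 0.0003). Slc11a2 was at 7.58 and 7.63 in 2i, against 6.64 and 6.51 in serum (1.03 log2, SE 0.10). The ferritin heavy chain gene Fth1 was lower: it was at 14.77 and 14.74 in 2i, against 15.38 and 15.32 in serum (−0.60 log2, SE 0.08), beside the fall of Slc40a1 given above. Also lower were Trf, the transferrin gene itself (6.23 and 6.07 in 2i, against 8.16 and 8.14 in serum, SE of the change 0.11), Bdh2, whose enzyme makes a mammalian siderophore (−2.14 log2, SE 0.09), and the metal importer gene Slc39a14 (−1.65 log2, SE 0.20). In all, 3 of 12 tested members were higher and 7 lower (83.3% called, against 39.7% of all genes). Without 1 compared array 2 or 3 were higher and 5 or 6 lower.

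**Figure D3:**
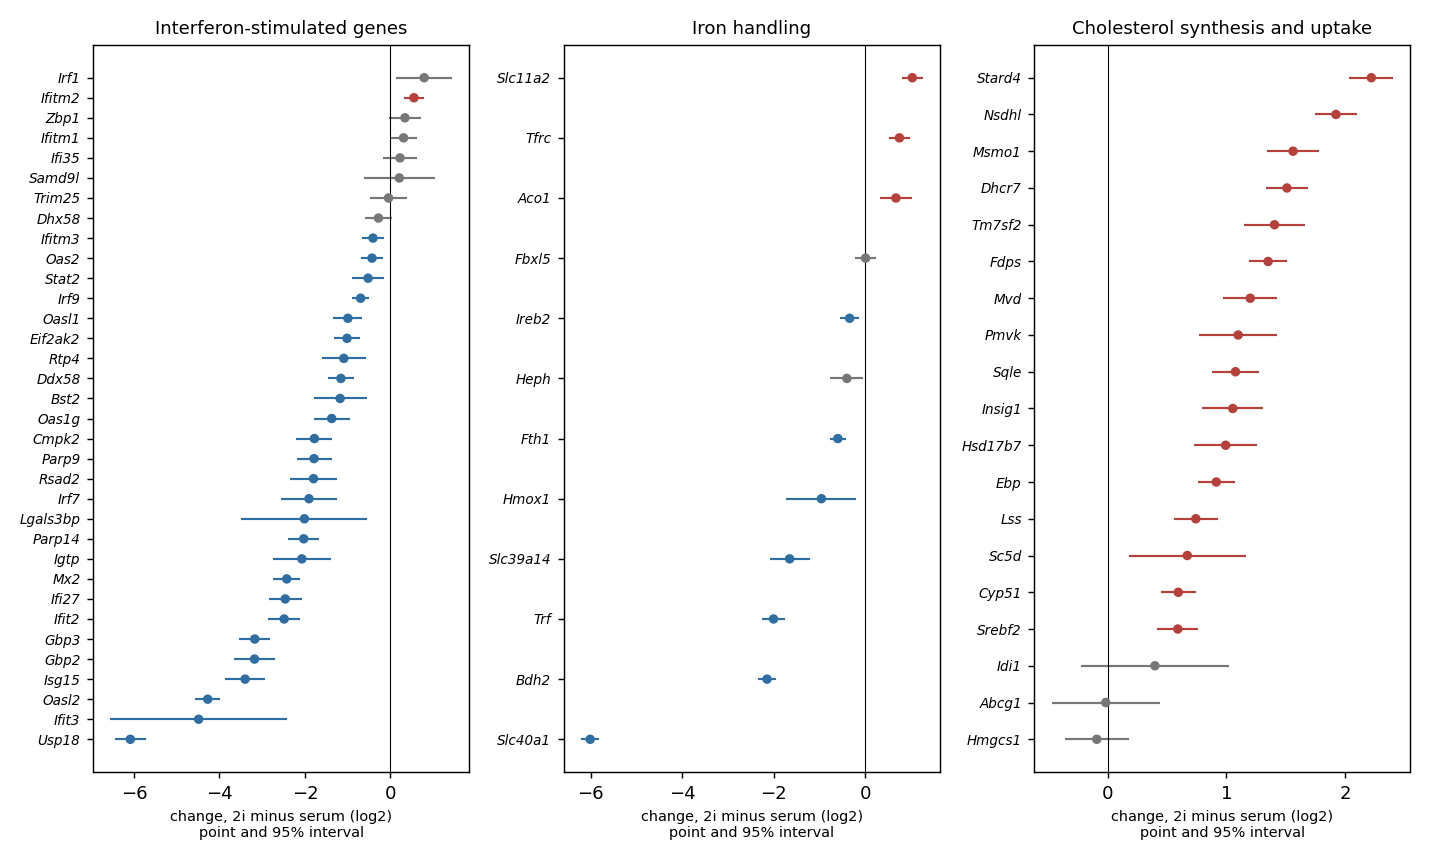
Change of every tested member of the interferon-stimulated, iron handling and cholesterol lists, 2i minus serum in log2, as a point with its 95% interval, in red for members called higher in 2i, blue for those called lower and grey for the others. Interferon-stimulated genes lie mostly below 0 (26 of 34 lower), iron genes on both sides and cholesterol genes mostly above 0 (16 of 19 higher).

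Sterol genes rose together. Cells short of sterol process the SREBP proteins, which then activate the genes of cholesterol synthesis and uptake, whereas lipoprotein from serum restrains them. Of 19 tested members, 16 were higher in 2i and 0 lower (84.2% called, against 39.7% of all genes). The median was 1.05 log2, and 15 or 16 were higher without 1 compared array. In the early pathway, Fdps, the farnesyl diphosphate synthase gene, was at 14.40 and 14.37 in 2i, against 13.05 and 13.03 in serum (1.35 log2, SE 0.07, adjusted p = 9.4e-07). Sqle, which encodes the enzyme that commits squalene to sterols, was at 13.54 and 13.65 in 2i, against 12.53 and 12.51 in serum (1.08 log2, SE 0.09). In the late pathway, Nsdhl was at 9.87 and 9.88 in 2i, against 7.97 and 7.93 in serum (1.92 log2, SE 0.08). For these 3 enzymes, named for their large changes, both 2i arrays lay above both serum arrays, which is no separate evidence. Msmo1 and Dhcr7, also late enzymes, rose by 1.56 log2 (SE 0.10) and 1.51 log2 (SE 0.08). The largest rise of the list was that of Stard4, which encodes a sterol carrier, at 11.18 and 11.08 in 2i, against 8.95 and 8.87 in serum (2.22 log2, SE 0.08). Of the regulator genes, Srebf2 rose by 0.59 log2 (SE 0.08) and Insig1, which retains SREBP in the endoplasmic reticulum, by 1.05 log2 (SE 0.11). Hmgcs1, the synthase before the rate-limiting step, was not called (−0.09 log2, SE 0.12), with 13.89 and 14.11 in 2i and 14.07 and 14.11 in serum, and its sign turned with median scaling or without 2i array 1. The sterol regulatory element, searched as TCACNCCAC on both strands in the 250 bases before the start (RefSeq promoter windows), was found in 1 of 15 members with a window (6.67%, Hmgcs1) and in 0 of 13 called higher, against 0.908% of all tested genes with a window.

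Fatty acid genes, many of them SREBP targets too, were higher for 13 of 16 tested members and lower for 1, with a median of 0.63 log2. The share called was 87.5%, against 39.7% of all genes. The stearoyl-CoA desaturase genes both rose: Scd1 was at 13.04 and 13.17 in 2i, against 10.94 and 10.85 in serum (2.21 log2, SE 0.08, adjusted p = 1.2e-07), and Scd2 at 11.62 and 11.62, against 9.93 and 9.87 (1.72 log2, SE 0.12). Lpin1, a phosphatidate phosphatase gene, rose by 1.81 log2 (SE 0.14) and was detected on 1 of the serum arrays. The regulator gene Srebf1 rose by 1.22 log2 (SE 0.17), the desaturase gene Fads2 by 1.18 log2 (SE 0.09) and the fatty acid synthase gene Fasn by 0.96 log2 (SE 0.17). Acsl4, which activates arachidonic acid, was the 1 member that fell (−0.98 log2, SE 0.08), at 7.07 and 7.19 in 2i and 8.18 and 8.03 in serum. Together with the sterol genes, these were the lists of 10 or more members with the highest shares of called members.

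Genes of glucose use were higher for several early and transport steps. Of 19 glycolysis and glucose uptake genes, 11 were higher and 2 lower (68.4% called, against 39.7% of all genes). The median was 0.37 log2, and 8 or 9 were higher and 0 lower without 1 compared array. Slc2a1, the glucose transporter gene, was at 14.20 and 14.22 in 2i, against 13.21 and 13.27 in serum (0.97 log2, SE 0.10). Pfkp, a phosphofructokinase gene, was at 12.85 and 12.82 in 2i, against 11.39 and 11.36 in serum (1.47 log2, SE 0.18). The aldolase gene Aldoc rose by 1.72 log2 (SE 0.08), the hexokinase gene Hk1 by 1.15 log2 (SE 0.19) and the lactate exporter gene Slc16a3 by 1.55 log2 (SE 0.15). Both 2i arrays lay above both serum arrays for each of these 5 genes, which were named for their large changes, so this is no separate evidence. Hk2, the other hexokinase gene, was not called (0.38 log2, SE 0.14, adjusted p = 0.059). Hypoxia genes, of which Slc2a1 and Pdk1 also stand in the glucose list, were higher for 7 of 12 and lower for 1 (66.7% called, against 39.7% of all genes). Without any 1 compared array, 0 of them were lower. Ndrg1 was at 11.64 and 11.63 in 2i, against 9.21 and 9.11 in serum (2.47 log2, SE 0.08). P4ha1, a collagen prolyl hydroxylase gene, rose by 2.25 log2 (SE 0.21), and the oxygen sensor gene Egln1 by 1.68 log2 (SE 0.29), whereas Vegfa, the angiogenic ligand gene, was not called (−0.31 log2, SE 0.20).

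In mitochondria the changes were smaller and depended more on single arrays. Of 17 genes of the tricarboxylic acid cycle, 8 were higher and 4 lower (70.6% called, against 39.7% of all genes). The number higher was 4 without serum array 1 and 5 without any 1 of the other 3 compared arrays, and the number lower was 1 without 2i array 1. The NADP-dependent isocitrate dehydrogenase genes rose most, Idh2 by 1.22 log2 (SE 0.15) and Idh1 by 0.98 log2 (SE 0.08). Suclg2, a succinate-CoA ligase subunit gene, fell by 0.74 log2 (SE 0.09). Of 32 complex I genes, 10 were higher and 0 lower (31.2% called, below the share of all genes), with a median of 0.23 log2. Without serum array 1 there were 5 higher, and without 2i array 2 there were 6, while median scaling gave 21. Ndufb7 rose by 0.66 log2 (SE 0.10) and Ndufc1 by 0.59 log2 (SE 0.09), both accessory subunits. Of 37 genes of complexes II to V, 16 were higher and 0 lower (43.2% called, close to the 39.7% of all genes), with a median of 0.21 log2. The number higher was 8 without serum array 2 and 10 without either 2i array. Cox7a2, a subunit of cytochrome oxidase, was at 11.05 and 11.24 in 2i, against 10.35 and 10.41 in serum (0.76 log2, SE 0.09), and Sdhb, of succinate dehydrogenase, was at 11.54 and 11.50 against 10.78 and 10.76 (0.75 log2, SE 0.09).

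**Figure D4:**
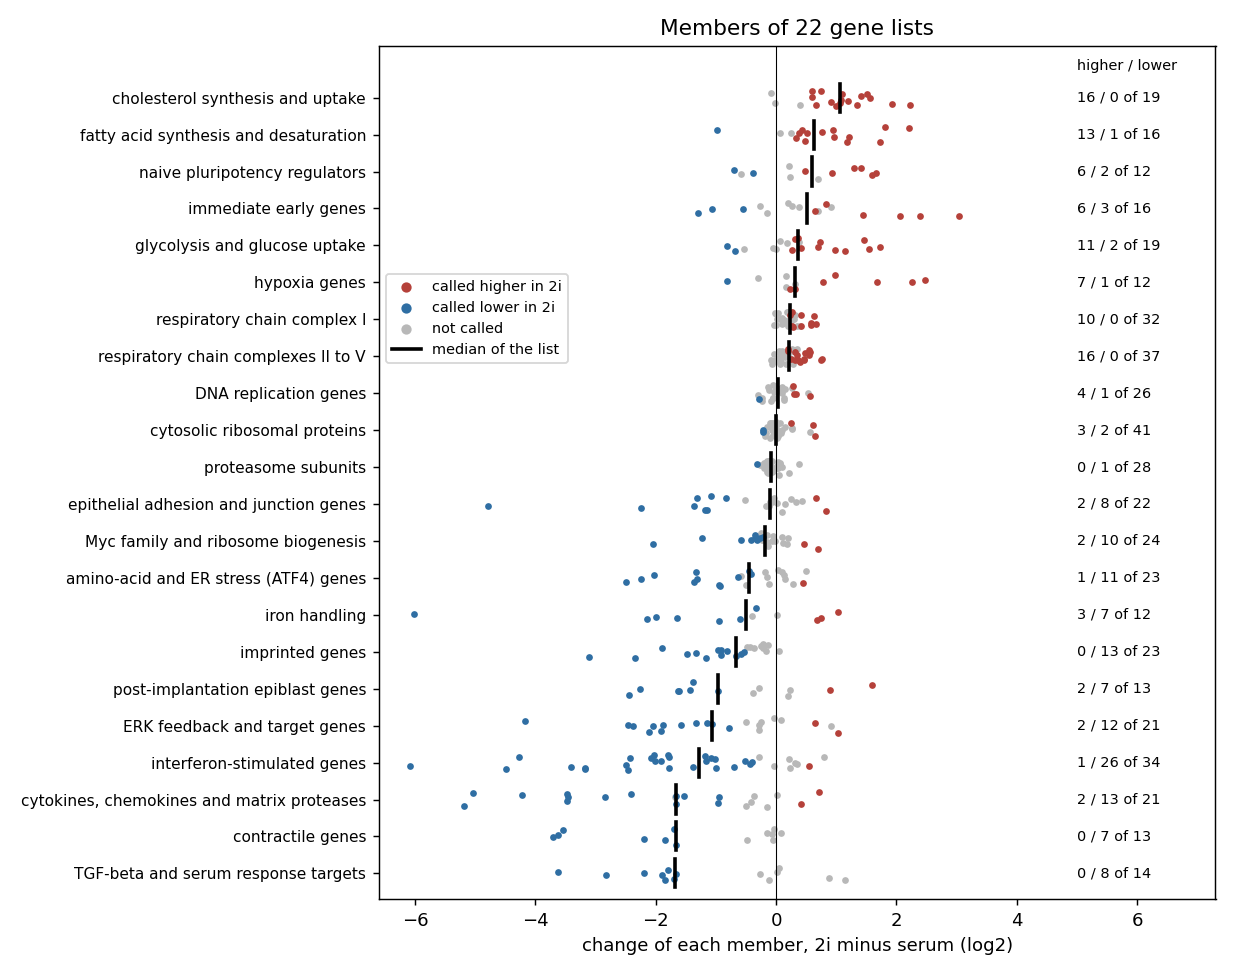
Change of each tested member of 22 gene lists, 2i minus serum in log2, with members called higher in red, called lower in blue and not called in grey, the list median as a black line and the counts at the right. Cholesterol and fatty acid genes lie furthest to the right (medians 1.05 and 0.63) and the TGF-beta, contractile and cytokine lists furthest to the left (medians −1.68, −1.66 and −1.66), while ribosomal protein and proteasome genes lie close to 0.

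Of the listed feedback and target genes of ERK, the kinase that MEK activates, more were called lower than higher. ERK induces its own negative regulators, the dual-specificity phosphatases and the Sprouty and Spred proteins, and the ETS factors of the Etv4 family. Of 21 tested members of the ERK list, 12 were lower and 2 higher (66.7% called, against 39.7% of all genes). The median was −1.06 log2, and 11 were lower without any 1 compared array. Among the feedback inhibitors, Dusp4 was at 8.26 and 8.30 in 2i, against 12.49 and 12.43 in serum (−4.18 log2, SE 0.09, adjusted p = 3.6e-09). Dusp6, the phosphatase specific for ERK, was at 11.69 and 11.67 in 2i, against 13.66 and 13.53 in serum (−1.91 log2, SE 0.17). Spry4 fell by 1.87 log2 (SE 0.18) and Spred1 by 1.58 log2 (SE 0.07). For Dusp4, Dusp6, Spry4 and Spred1, named for their large changes, the media were separated on every array by more than 1 log2, which is no separate evidence. Etv4 itself was at 8.49 and 8.62 in 2i, against 11.03 and 11.01 in serum (−2.46 log2, SE 0.14), whereas its relative Etv5 was at 10.86 and 10.80 in 2i and 11.13 and 11.10 in serum and was not called (adjusted p = 0.059). Myc, a growth regulator gene, was undetected in 2i and at least 2.35-fold lower. The phosphatase gene Dusp1 went the other way, at 14.24 and 14.18 in 2i and 13.19 and 13.17 in serum (1.03 log2, SE 0.09).

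Immediate early genes, which ERK and stress kinases induce within minutes, were divided. Of 16 tested members, 6 were higher and 3 lower (56.2% called, against 39.7% of all genes). The median was 0.52 log2, and 10 were higher without either EpiSC array. Fos was at 12.71 and 12.83 in 2i, against 10.39 and 10.38 in serum (2.39 log2, SE 0.11, adjusted p = 3.7e-07). Ier2 was at 8.73 and 8.77 in 2i, against 5.56 and 5.88 in serum, where it was detected on 1 array (3.03 log2, SE 0.27). Egr2, a zinc finger factor gene, was at 9.94 and 9.79 in 2i, against 7.94 and 7.67 in serum (2.06 log2, SE 0.36), and its relative Egr1 rose by 0.65 log2 (SE 0.09). Of the AP-1 partners, Jund rose by 1.45 log2 (SE 0.26) and Jun by 0.83 log2 (SE 0.14), while Junb was not called (−0.27 log2, SE 0.11, adjusted p = 0.066). Atf3, a stress-induced factor gene, fell by 1.30 log2 (SE 0.14), with 6.99 and 6.72 in 2i and 8.11 and 8.20 in serum. Ier3 and Fosb were higher on both 2i arrays than on both serum arrays but were not called (0.91 log2, SE 0.35, and 0.69 log2, SE 0.27).

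Targets of beta-catenin, which CHIR99021 stabilizes, showed no common direction. Of 15 tested Wnt targets, 3 were higher and 3 lower (40%, close to the 39.7% of all genes). The number higher was 1 without serum array 1, 2i array 1 or 2i array 2, and the number lower was 5 without either EpiSC array. Notum, a secreted deacylase gene that limits Wnt signalling, was at 11.41 and 11.28 in 2i, against 9.22 and 9.25 in serum (2.11 log2, SE 0.09, adjusted p = 2.9e-07). Axin2, the most widely used target gene of the pathway, was at 10.12 and 10.17 in 2i, against 9.77 and 9.83 in serum (0.34 log2, SE 0.10, adjusted p = 0.02). The call of Axin2 ended without any 1 of the 4 compared arrays, when its change was 0.31 to 0.37 log2 and its adjusted p up to 0.11. Of the ligands and their secreted antagonists, 1 of 13 was higher, Sfrp1 (above), and 5 were lower (46.2% called, against 39.7% of all genes). Wnt7b was undetected in 2i and at 8.92 and 8.89 in serum (at least 8.28-fold lower). Wnt5a, a ligand of the non-canonical branch, was at 6.76 and 6.83 in 2i, against 8.81 and 8.81 in serum (−2.01 log2, SE 0.41). Porcn, whose enzyme lipid-modifies Wnt ligands for secretion, fell by 0.84 log2 (SE 0.10).

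In the LIF pathway, feedback genes split. Socs3, the main feedback inhibitor of STAT3, was at 12.87 and 12.71 in 2i, against 12.21 and 12.19 in serum (0.59 log2, SE 0.09), whereas Socs2 was at 12.92 and 12.88 in 2i, against 14.19 and 14.08 in serum (−1.23 log2, SE 0.08). Over the LIF and STAT3 list, 3 of 15 members were higher and 5 lower (53.3% called, against 39.7% of all genes). Most of the falls were small, and the number lower was 2 without 2i array 1 and 1 without each of the other 3 compared arrays, while the number higher was 1 without serum array 2 or either 2i array.

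BMP and Nodal genes were divided as well. Among BMP ligands, Bmp4 was at 9.95 and 10.02 in 2i, against 11.70 and 11.69 in serum (−1.71 log2, SE 0.39), and Bmp7 at 8.02 and 7.94, against 6.76 and 6.45 (1.38 log2, SE 0.14). The secreted BMP antagonist gene Grem1 was at 5.99 and 6.15 in 2i, against 10.66 and 10.58 in serum (−4.54 log2, SE 0.68, adjusted p = 0.00058). Of the Id genes, direct targets of BMP that encode inhibitors of helix-loop-helix factors, Id1 fell by 1.39 log2 (SE 0.25) and Id4 rose by 1.77 log2 (SE 0.19). Over the BMP list, 4 of 14 were higher and 6 lower (71.4% called, against 39.7% of all genes), with 2 higher without serum array 1. In the Nodal and activin list, 3 of 14 were higher and 3 lower (42.9%, close to all genes), with 5 lower without either EpiSC array. Inhba, the activin A subunit gene, was at 6.28 and 6.48 in 2i, against 10.44 and 10.41 in serum (−4.05 log2, SE 0.67), and the activin antagonist gene Fst fell by 1.27 log2 (SE 0.14). The Nodal feedback gene Lefty2 was at 13.99 and 14.09 in 2i, against 11.93 and 11.87 in serum (2.14 log2, SE 0.49), and Lefty1 at 13.46 and 13.46, against 12.67 and 12.76 (0.75 log2, SE 0.08). Nodal itself was not called (0.48 log2, SE 0.26).

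Of the cytoskeletal genes that serum and TGF-beta induce, all those called were lower in 2i, and 6 of each list below were not called. Serum activates the factor SRF through actin dynamics, and SRF binds the CArG box of muscle and cytoskeletal promoters. Of 14 tested members of the TGF-beta and serum response list, 8 were lower and 0 higher (57.1% called, against 39.7% of all genes). The median was −1.68 log2, and 2 were higher without either EpiSC array. Of 13 contractile genes, 7 were lower and 0 higher (53.8%, also against 39.7%), with a median of −1.66 log2, and the 2 lists share members. Zyx, the gene of the focal adhesion protein zyxin, was at 10.19 and 10.14 in 2i, against 12.96 and 13.01 in serum (−2.82 log2, SE 0.15, adjusted p = 9.7e-07). Tpm1, a tropomyosin gene, was at 10.81 and 10.88 in 2i, against 12.54 and 12.48 in serum (−1.66 log2, SE 0.25). Cnn2, a calponin gene, was at 7.46 and 6.78 in 2i, against 8.88 and 9.05 in serum (−1.84 log2, SE 0.18). The arrays of a medium lay within 0.1 log2 of each other for Zyx and Tpm1, while the 2i arrays of Cnn2 lay further apart. Tagln, the gene of transgelin, and the smooth muscle actin gene Actg2 were undetected in 2i and at least 2.87-fold and 9.16-fold lower. Acta1, the skeletal actin gene, was at 6.26 and 5.55 in 2i, against 9.58 and 9.64 in serum (−3.70 log2, SE 1.21, adjusted p = 0.035), and Acta2 at 10.05 and 9.95, against 13.60 and 13.64 (−3.62 log2, SE 1.14, adjusted p = 0.03). The calls of Acta1 and Acta2 ended without any 1 of the 4 compared arrays, with changes of −4.06 to −3.35 log2 and −3.67 to −3.57 log2 and adjusted p up to 0.14 and 0.11. The fibroblast marker sums were 76.9 and 76.3 in 2i and 77.8 and 77.2 in serum, with rises and falls of single markers offsetting each other. The part of fibroblasts in these falls was not tested.

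The CArG box, an AT-rich sequence between CC and GG, was searched by its consensus in the same promoter windows, on either strand. It was found in 3 of the 11 contractile genes with a window (27.3%), and in 2 of the 5 called lower, and in 4 of 9 of the TGF-beta and serum response list (44.4%; 2 of the 6 called lower and 2 of the 3 not called), against 1.19% of all tested genes with a window. The windows of these 2 genes are shown with the match in capitals, written as above.
Acta1, chr8:123894814-123894873 (minus strand): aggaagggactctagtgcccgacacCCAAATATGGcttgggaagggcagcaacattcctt
Cnn2, chr10:79988519-79988578 (plus strand): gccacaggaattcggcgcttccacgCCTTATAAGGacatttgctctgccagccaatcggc
The match of Acta1 began 73 bases before the start and that of Cnn2 56 bases before it.

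Targets of YAP and of its partner TEAD, which respond to the same mechanical inputs, were lower for 4 of 11 members and higher for 0 (36.4%, near the share of all genes). Axl, a receptor tyrosine kinase gene, was at 8.97 and 8.94 in 2i, against 11.73 and 11.74 in serum (−2.78 log2, SE 0.58). Of 12 tested integrin genes, 1 was higher and 2 were lower (25% called, below the 39.7% of all genes). The 2 lower were Itga1, undetected in 2i and at least 4.62-fold lower, and Itga3, a laminin receptor subunit gene. Itga3 was at 8.08 and 8.17 in 2i, against 10.01 and 10.14 in serum (−1.95 log2, SE 0.16). Of 17 genes of laminins, collagens and basement membrane, 2 were higher and 3 lower (29.4%, also below all genes). In the wider list of 25 fibroblast and feeder genes, 4 were higher and 7 lower (44%, against 39.7% of all genes). The number lower was 4 without serum array 1 or 2i array 2, and without either EpiSC array 7 were higher and 13 lower. Thy1, a surface glycoprotein gene, was at 10.22 and 10.42 in 2i, against 11.53 and 11.55 in serum (−1.22 log2, SE 0.12), and Twist2, a mesenchymal factor gene, fell by 3.23 log2 (SE 0.72). Besides Col3a1, the collagen gene Col6a2 rose by 1.56 log2 (SE 0.26) and the proteoglycan gene Lum by 0.93 log2 (SE 0.21). Col1a1, the collagen gene that fibroblasts express most strongly, was at 10.60 and 10.57 in 2i and 9.62 and 9.77 in serum and was not called (0.89 log2, SE 0.82).

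Genes of the integrated stress response fell in part. Amino acid shortage and stress of the endoplasmic reticulum raise translation of ATF4, which then induces amino acid transporters, synthetic enzymes and stress effectors. Of 23 tested members, 11 were lower and 1 higher (52.2% called, against 39.7% of all genes), with a median of −0.44 log2. Without serum array 1, 7 were lower and 0 higher, while 3 were higher without either EpiSC array. The stress effectors fell most. Chac1, whose enzyme degrades glutathione, was at 11.69 and 11.63 in 2i, against 14.14 and 14.16 in serum (−2.49 log2, SE 0.43, adjusted p = 0.0014). Ddit3, the gene of the factor CHOP, was at 8.35 and 8.47 in 2i, against 10.61 and 10.69 in serum (−2.24 log2, SE 0.25). Cebpb, the partner factor gene, was at 9.71 and 9.79 in 2i, against 11.71 and 11.85 in serum (−2.03 log2, SE 0.14). Trib3, a pseudokinase gene, fell by 0.93 log2 (SE 0.13), and Mthfd2, a mitochondrial folate enzyme gene, by 0.95 log2 (SE 0.11). Atf4 itself was at 11.15 and 11.24 in 2i and 11.34 and 11.42 in serum and was not called (−0.18 log2, SE 0.09, adjusted p = 0.13). Asns, the asparagine synthetase gene, was the 1 member that rose (0.46 log2, SE 0.11), a call that ended without serum array 1 (adjusted p = 0.068).

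The element that ATF4 binds together with C/EBP factors was searched as TGATGNAA on both strands. It was found in 4 of the 20 members with a promoter window (20%), in 2 of the 9 called lower, against 2.23% of all tested genes with a window. Chac1 and Asns, which moved in opposite directions, both held it, and are shown with the match in capitals.
Chac1, chr2:119351024-119351081 (plus strand): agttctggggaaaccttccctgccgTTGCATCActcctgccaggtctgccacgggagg
Asns, chr6:7693210-7693257 (minus strand): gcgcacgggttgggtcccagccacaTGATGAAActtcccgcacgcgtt
The match began 193 bases before the start of Chac1 and 23 bases before that of Asns.

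Naive pluripotency regulators were higher for 6 of 12 members and lower for 2 (66.7% called, against 39.7% of all genes), with a median of 0.59 log2. Without 1 compared array 4 or 5 were higher, and 1 was lower without either serum array or 2i array 2. Tbx3, a T-box factor gene, was at 11.81 and 11.84 in 2i, against 10.38 and 10.43 in serum (1.42 log2, SE 0.18). Prdm14, a repressor of differentiation and of DNA methyltransferases, was at 7.36 and 7.15 in 2i, against 5.51 and 5.70 in serum (1.65 log2, SE 0.12). The Krüppel-like factor genes did not move together: Klf2 was at 13.79 and 13.79 in 2i, against 13.33 and 13.27 in serum (0.49 log2, SE 0.09), whereas Klf5 was at 13.15 and 13.05 in 2i, against 13.82 and 13.77 in serum (−0.69 log2, SE 0.07, adjusted p = 4.2e-05). Klf4 rose by 0.93 log2 (SE 0.22), a call that ended without 2i array 2 (adjusted p = 0.052). Esrrb, at 15.32 and 15.25 in 2i and 15.06 and 15.05 in serum, was not called (0.23 log2, SE 0.73), nor was Dppa3 (0.22 log2, SE 0.11). Of 9 core factors 1 was higher and 3 were lower (44.4% called, against 39.7% of all genes). Nanog was the 1 that was higher, at 14.01 and 14.05 in 2i against 13.58 and 13.49 in serum. Among the 3 lower were Utf1, a chromatin factor gene (−1.06 log2, SE 0.19), and Lin28a, an RNA-binding regulator of let-7 (−0.72 log2, SE 0.13).

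Genes that mark the epiblast after implantation were lower for 7 of 13 and higher for 2, with a median of −0.96 log2. The share called was 69.2%, against 39.7% of all genes. Otx2, a homeobox gene that initiates the exit from the naive state, was at 9.04 and 8.85 in 2i, against 10.37 and 10.39 in serum (−1.43 log2, SE 0.15). The ligand genes Fgf5 and Fgf15 were undetected in 2i, with Fgf5 at 7.37 and 7.46 and Fgf15 at 7.20 and 6.93 in serum, and they were at least 2.94-fold and 2.31-fold lower. The 2 members called higher differed in size: Zic2, a zinc finger factor gene undetected in serum, was at least 2.57-fold higher in 2i, and Pou6f1, a POU factor gene, rose by 0.89 log2 (SE 0.15).

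Imprinted genes are expressed from 1 parental allele and are known to lose imprinting in cultured ESCs. Of 23 tested members, 13 were lower and 0 higher (56.5% called, against 39.7% of all genes), with a median of −0.66 log2. Without 1 compared array 9 to 11 were lower. Grb10, a growth-inhibiting adaptor gene, was at 11.51 and 11.59 in 2i, against 13.88 and 13.90 in serum (−2.34 log2, SE 0.07, adjusted p = 4.3e-08). Impact, a regulator of the amino acid sensor GCN2, was at 12.03 and 12.03 in 2i, against 13.03 and 12.94 in serum (−0.96 log2, SE 0.09). The placental gene Peg10 and Dlk1, a Notch-like ligand gene, were undetected in 2i and at least 5.14-fold and 2.13-fold lower. The small nuclear ribonucleoprotein gene Snrpn fell by 0.92 log2 (SE 0.09) and the receptor gene Igf2r by 0.66 log2 (SE 0.10). Igf2, the growth factor gene, was at 9.78 and 9.63 in 2i and 10.38 and 10.37 in serum and was not called (−0.67 log2, SE 0.92). Dio3, which is imprinted in the mouse but was not in the list, rose as given above.

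Of the DNA methylation genes, 1 of 13 was higher and 3 lower (30.8%, below the share of all genes), and without either EpiSC array 2 were higher and 6 lower. With median scaling 5 were higher. With no background correction 5 were lower. Without serum array 2 there were 0 higher and without 2i array 2 there were 2. The de novo methyltransferase gene Dnmt3b was at 13.72 and 13.76 in 2i, against 15.10 and 15.13 in serum (−1.38 log2, SE 0.06, adjusted p = 4.1e-07). Its cofactor gene Dnmt3l was at 13.16 and 13.12 in 2i and 15.46 and 15.46 in serum, pairs that lie far apart, but was not called (−2.32 log2, SE 0.90, adjusted p = 0.066) with the error set over all 14 arrays. Without either EpiSC array Dnmt3l was called lower by the same change. The maintenance genes Dnmt1 (0.16 log2, SE 0.09) and Uhrf1 (0.08 log2, SE 0.09) were not called. Gadd45a, a DNA damage gene implicated in demethylation, was at 11.33 and 11.35 in 2i, against 13.22 and 13.22 in serum (−1.88 log2, SE 0.06). Among Polycomb genes, 5 of 26 were higher and 7 lower (46.2%, against 39.7% of all genes), and 2 were higher without either serum array or 2i array 1. The largest fall was in Phf19, a PRC2 accessory subunit gene, at 6.84 and 7.17 in 2i against 8.82 and 8.83 in serum (−1.82 log2, SE 0.22).

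Epithelial genes other than Grhl2 also included clear falls. Over the list, which holds Grhl2, 8 of 22 were lower and 2 higher (45.5% called, against 39.7% of all genes). The epithelial factor gene Ovol1 was undetected in 2i and at least 3.62-fold lower. Esrp1, an epithelial splicing factor gene, was at 10.27 and 10.65 in 2i, against 11.71 and 11.83 in serum (−1.31 log2, SE 0.13), and the tight junction gene Cldn6 was at 11.03 and 10.97, against 12.18 and 12.18 (−1.18 log2, SE 0.10). Cdh1, the E-cadherin gene, was at 12.21 and 12.39 in 2i and 12.19 and 12.20 in serum and was not called (0.10 log2, SE 0.14). The desmosomal genes Dsg2 and Jup rose, Dsg2 by 0.66 log2 (SE 0.11) and Jup, undetected in serum, by at least 1.67-fold.

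Several regulators of G1 were called in either direction. Cdkn1a, the gene of the CDK inhibitor p21, was at 12.53 and 12.59 in 2i, against 10.59 and 10.63 in serum (1.95 log2, SE 0.08, adjusted p = 1.7e-07). Rbl1, the gene of the pocket protein p107, was at 9.49 and 9.63 in 2i, against 8.42 and 8.24 in serum (1.23 log2, SE 0.15). Cyclin gene Ccnd2 was at 8.06 and 7.91 in 2i, against 9.95 and 9.98 in serum (−1.99 log2, SE 0.31), while Ccnd1 was not called (−0.25 log2, SE 0.15), and the CDK inhibitor gene Cdkn1c, which is imprinted, fell by 1.48 log2 (SE 0.14). In all, 6 of 19 G1 genes were higher and 4 lower (52.6%), against 4 and 1 of 26 DNA replication genes (19.2%, below the 39.7% of all genes). The difference between these shares was not tested. Without serum array 2 there were 3 G1 genes higher and 2 lower, and without 2i array 1 there were 2 lower. Without 1 compared array, 0 to 2 replication genes were higher and 0 lower, and 4 were lower without either EpiSC array. With median scaling 8 replication genes were higher and 0 lower.

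Of 24 genes of the Myc family and ribosome biogenesis, 10 were lower and 2 higher (50% called, against 39.7% of all genes). With median scaling 4 of them were lower and 3 higher, so the direction of this list depends on the scaling. The number lower was 6 without serum array 1 and 5 without serum array 2 or 2i array 1, and the number higher was 1 without 2i array 1 and 0 without each of the other 3 compared arrays. Pes1, a ribosome assembly gene, was at 10.71 and 10.67 in 2i, against 11.92 and 11.94 in serum (−1.24 log2, SE 0.25), and Nop56, a snoRNP core gene, fell by 0.58 log2 (SE 0.07). Of 41 cytosolic ribosomal protein genes, 3 were higher and 2 lower, and of 28 proteasome genes 0 were higher and 1 lower, far below the 39.7% of all genes. With median scaling the ribosomal protein genes were instead 18 higher and 0 lower and the proteasome genes 3 higher and 0 lower, so no direction is given for either family.

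The same genes were looked up in the other groups, which are not in the contrast but help to set each gene's error in the fit on all 14 arrays, and so which genes were called. Of the genes called at least 2-fold and detected on both arrays of a side, 393 were higher and 668 lower in 2i. In RFP-positive serum cells, 392 of 393 (99.7%) and 663 of 668 (99.3%) lay nearer the mean of the RFP-negative serum cells than that of 2i cells. In the serum line with the GFP reporter alone, 242 (61.6%) and 446 (66.8%) lay nearer that mean. Medium and line differ between that line and the 2i cells, and their parts cannot be told apart. Of the 25 largest rises, 8 were nearer to 2i in the single-reporter line: Sfrp1, Col3a1, Cdc42ep2, Slit2, Aim2, Ccdc68, Dio3 and Osr2. Of the 25 largest falls, 3 were nearer to 2i there: Wnt7b, Car4 and Acta1. The single-reporter arrays held more fibroblast marker signal, summing to 99.3 and 99.0, and its part was not tested. Spic was at 7.90 and 7.74 in that line, between the 2i and the serum levels given above, while Slc40a1 was at 10.43 and 10.43 and Usp18 at 11.50 and 11.57.

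EpiLCs, which form from naive cells without serum, were nearer to 2i than to serum for 17 of the 25 largest falls and 5 of the 25 largest rises. Over all genes changed by at least 2-fold they were instead nearer to serum, for 407 of the 668 falls (60.9%) and 265 of the 393 rises (67.4%). Usp18 was undetected in EpiLCs, with 5.07 and 5.21, as it was in 2i, and so was Mmp3. Slc40a1, in contrast, was at 9.96 and 9.95 in EpiLCs, above both 2i arrays. EpiSCs were nearer to 2i for 5 of the 25 largest rises and 11 of the 25 largest falls. Their 2 arrays lay far apart for some of these genes, such as Acta2 (10.19 and 15.13). MEFs were nearer to 2i for 5 of the 25 largest rises, Col3a1, Prss35, Cdc42ep2, Slit2 and Ccdc68, and for 10 of the 25 largest falls. Of the 25 largest falls, 19 were detected on both MEF arrays, and 9 had a higher mean in MEFs than in serum. Of the 25 largest rises, 9 were detected on both MEF arrays, and 9 had a higher mean there than in serum. These positions are descriptions of the group means and were not tested.

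**Figure D5:**
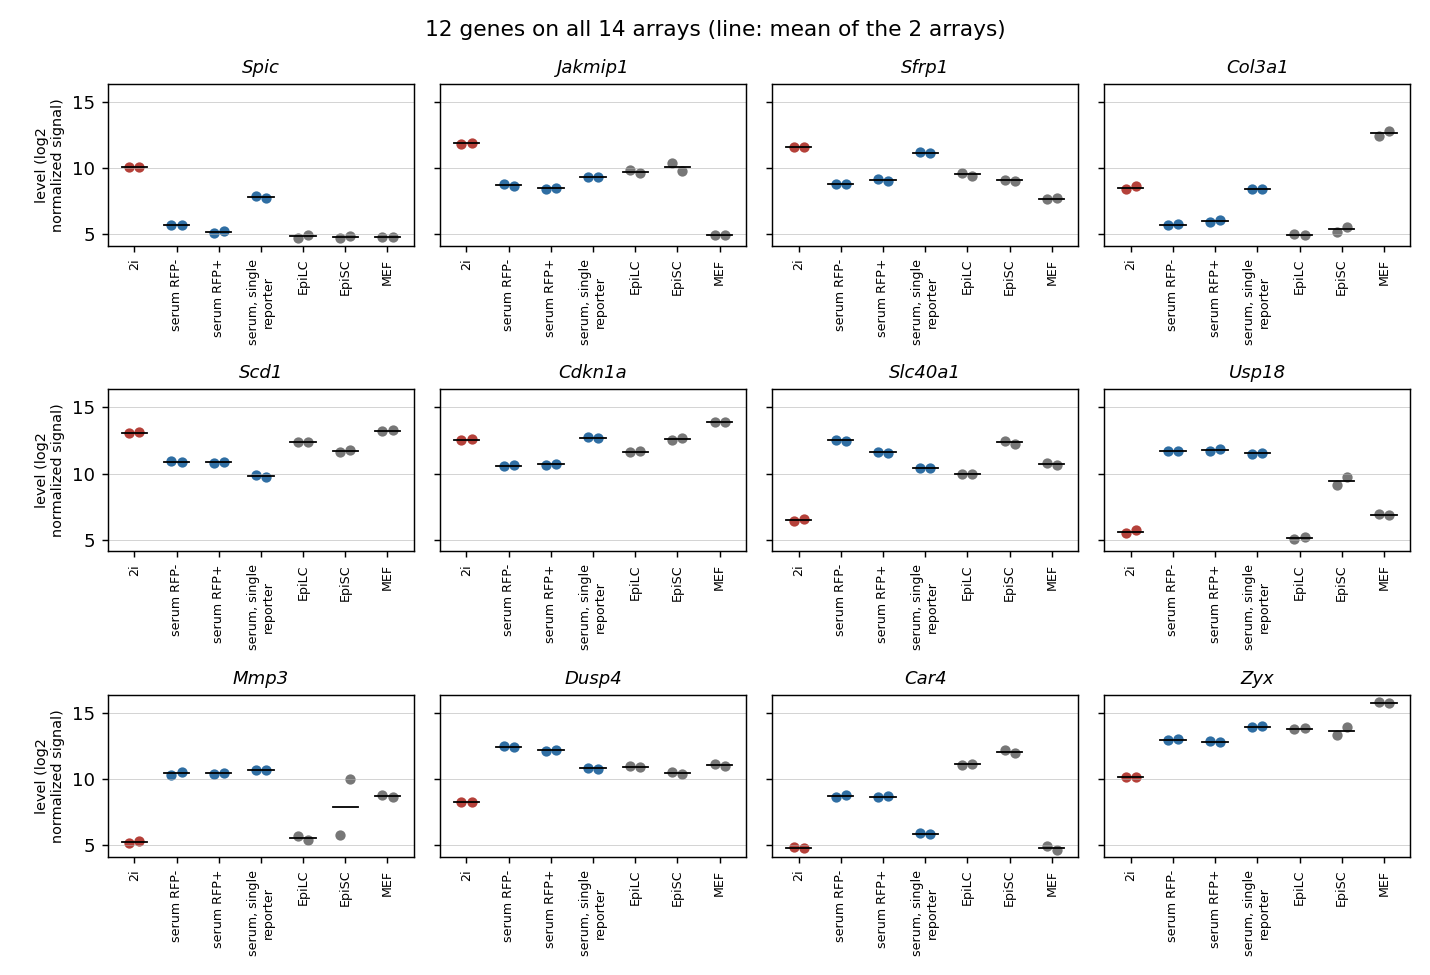
Level (log2 normalized signal) of 12 genes on all 14 arrays, with 2i in red, the serum groups in blue, the other groups in grey and a line at the mean of the 2 arrays. RFP-positive serum cells lie near RFP-negative serum cells for each gene, while the single-reporter serum line lies nearer to 2i for Sfrp1, Col3a1, Cdkn1a and Car4.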

How the data were processed

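Biotin-labelled cRNA was hybridised to Illumina mouse beadchips, per the labels' protocols. Per the file headers, each array has 1 raw signal intensity and 1 detection p-value a probe in the deposited table, exported with GenomeStudio 2011.1, per the submitters' processing notes. A deposited value table held the authors' quantile-normalized log2 values without background correction, and served as an alternative. Intensities were corrected and normalized with neqc in limma 3.58.1 (R 4.3.3): normexp, with the negative controls inferred from detection, then quantile normalization of the values plus 16 and log2. A probe counted as detected at a p-value under 0.05. Of a gene's probes, the one with the highest mean among those detected was used, and a gene was tested where detected on both arrays of at least 1 group. A group-means model with lmFit and eBayes on all 14 arrays gave the 2i minus serum contrast, with Benjamini-Hochberg adjustment over 10481 genes. On arrays, the number of arrays and not a read depth limits the precision, here a median 95% interval of ± 0.29 log2 around a change.

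Gene names are those of the platform annotation, updated to current symbols. The text names the 25 largest rises and falls and, of 63 gene lists, members by their call and level, only some of which are shown. The members and lists were chosen with earlier results of these data known. The self-test of the fit used simulated arrays. Alternatives covered background correction, scaling, probe choice, detection filters, the replicate block, the groups fitted and each array left out.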

Additional observations from a re-analysis of the deposited data

How the results depend on the processing

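With no background correction, which is also how the authors' values were made, 157 genes were higher and 295 lower by at least 2-fold, fewer than the 394 and 669 reported, and the values of dim genes lie closer together by construction. With the replicate block the counts were 2027 genes higher and 2085 lower, 394 and 666 of them by at least 2-fold. The labels name no source that arrays of the same number share. Deviations of same-numbered arrays correlated at 0.04 between 2i and serum, which cannot say whether they shared a culture or a batch. Fitting only the 4 arrays gave 2489 higher and 2549 lower. Median scaling shifted the median of all genes to 0.09 log2 and made 57.5% of the calls higher, against 49.5% in the reported fit. It turned the sign of Pou5f1 (0.0902 log2) and Hmgcs1 (0.107 log2), both not called. Leaving out 1 array moved Hmgcs1 between −0.200 and 0.0192 log2. Of 177 named genes that were called, 171 kept their call under all 27 alternatives in which they were tested (Jup was not tested at a detection p-value under 0.01). The others were Acta1, Acta2, Asns, Axin2, Ccl7 and Klf4. The named genes were chosen mostly for large changes in the reported fit, so this share does not stand for all 4160 called genes. Not all of the 27 alternatives were distinct fits. The authors' values gave the same counts as no background correction. Leaving out either array of a group outside the comparison gave the same counts as leaving out its other array. The counts over all genes fell when 1 compared array was left out, as given above. For Ccl7 the call ended without any 1 of the 4 compared arrays, with changes of −3.53 to −3.40 log2 and adjusted p up to 0.11 in limma. Dim probes limit the largest differences, which are bounds for 7 of the 25 rises and 11 of the 25 falls.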

Other observations

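Other gene groups held single large differences within mixed lists. The insulin-like growth factor binding protein gene Igfbp5 was at 8.83 and 8.83 in 2i, against 6.79 and 6.61 in serum (2.13 log2, SE 0.11, adjusted p = 9.7e-07 in limma), and Igfbp2 rose by 1.21 log2 (SE 0.10). Among 18 genes of the NRF2 response to oxidative stress, 6 were higher in 2i and 3 lower (50% called, against 39.7% of all genes). Keap1, the inhibitor of NRF2, rose by 0.95 log2 (SE 0.10), and the glutathione transferase gene Gsta3 by 1.43 log2 (SE 0.17). The number lower was 1 without 2i array 2 and 0 without each of the other 3 compared arrays.

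Among 25 lysosome genes and their regulators, 3 were higher and 8 lower (44%, against 39.7% of all genes). Flcn, the folliculin gene, fell by 0.80 log2 (SE 0.12), and Tfe3, the factor that folliculin retains in the cytosol, by 0.67 log2 (SE 0.09). Of 18 germ cell genes 5 were higher and 3 lower (44.4%, also against 39.7% of all genes). Piwil2, which acts in the piRNA pathway, was at 8.02 and 7.89 in 2i against 9.78 and 9.72 in serum (−1.79 log2, SE 0.31). The RNA-binding gene Nanos3 was at 7.24 and 7.34 against 8.97 and 9.06 (−1.72 log2, SE 0.08). Of 11 retinoid-responsive genes 1 was higher and 3 lower (36.4%, below all genes), with 0 higher without serum array 1 or 2i array 1 and 2 higher and 6 lower without either EpiSC array or with only the 2 groups fitted. The receptor gene Rarg was at 8.46 and 8.45 in 2i against 10.02 and 9.89 in serum (SE 0.07, adjusted p = 4.6e-07).

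Several probes were detected for 2785 genes, and 17 of these had probes called in opposite directions. Of the 1191 called genes with several probes, 1037 had the same sign on all of them. Among the genes described above, a further probe that was detected on a 2i or serum array was not called for Sdhb (0.06 log2), Tbx3 (0.55 log2), Slc16a3 (0.31 log2), Egln1 (0.53 log2), Acta2 (−2.81 log2) and Suclg2 (−0.54 log2), each in the same direction as the probe reported. The further probes of Dsg2 (0.21 log2) and Acsl4 (0.12 log2) that were not called were undetected on all 4 arrays, and that of Acsl4 had the opposite sign. For Pou5f1, not called, a further probe had the opposite sign (0.09 log2).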
